A study of Mus musculus with 4 samples.

Results

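Classical cadherins and catenins were followed in 4 mouse lung cancer cell lines, each sequenced once. The 7 genes were chosen by symbol: the cadherins Cdh1, Cdh2, Cdh3 and Cdh11 and the catenins Ctnna1, Ctnnb1 and Ctnnd1. Each had a single row among the 34147 distinct symbols of the table. By their labels, 238N1 and 482N1 are metastatic lines of lymph node origin, and 368T1 and 394T4 are non-metastatic lines of lung origin. All 4 grew from tumours that a lentiviral Cre vector had started in 129S1/SvImJ mice with floxed p53 alleles (p53flox/flox), so the Cre-deletable p53 is shared by every line. The treatment notes speak of tumours, while the growth notes describe cultured cancer cells. The labels name no promoter for the Cre and do not say whether a line is a single clone. The p-values below set group differences against the spread between these particular lines, with each gene's spread drawn towards a trend over all genes tested. The fit after scaling to the library sum is an exception. Its SE was nearly the same for the genes shown, so its p-values do not measure a gene's own spread. Metastatic status coincides with lymph node against lung origin, so status and origin cannot be told apart here.

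Classical cadherins are calcium-dependent adhesion proteins that bind the same cadherin on the neighbouring cell and so build the adherens junction. Their cytoplasmic tail holds delta-catenin (p120-catenin, Ctnnd1), which keeps the cadherin at the membrane, and beta-catenin (Ctnnb1), which recruits alpha-catenin (Ctnna1), the link to actin. Beta-catenin has a separate life as the transcriptional effector of Wnt signalling. E-cadherin (Cdh1) is the cadherin of epithelia, including lung epithelium, and its loss, often with a gain of N-cadherin (Cdh2), is the textbook mark of epithelial-mesenchymal transition.

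All levels are in FPKM, a unit that divides fragment numbers by transcript length and by library size, so that levels of different genes can be compared within a line. Fragment counts were not used here, so no counting interval can be given. From the steps of the smallest values, 482N1, 368T1 and 394T4 had an estimated 0.581, 0.610 and 0.554 of the sequencing depth of 238N1. The ratios used were shared by 162 of 937, 130 of 744 and 130 of 742 low genes compared. They are estimates only, as the program that scaled the values is not known. Epithelial identity was checked with 6 markers (Krt8, Krt18, Krt19, Epcam, Cldn4 and Cldn7), all of which reached 1 FPKM in every line. They summed to 2407 FPKM in 238N1 and 1670.2 FPKM in 482N1, against 3589 FPKM in 368T1 and 3198 FPKM in 394T4. Each of the 6 was lower in both metastatic lines, an order that 26.9% of all genes averaging 1 FPKM or more had. Epcam, the epithelial adhesion molecule, had only 4.13 and 4.76 FPKM in 238N1 and 482N1, against 54.0 and 34.3 FPKM in 368T1 and 394T4, and the tight junction gene Cldn4 had 13.4 and 8.51 FPKM, against 132.0 and 124.7 FPKM (limma, adjusted p = 0.0997 and 0.0596). The 7 endothelial markers summed to under 1 FPKM in every line, and the 10 leukocyte markers to 2.33 and 2.92 FPKM in 238N1 and 482N1, against 2.87 and 2.16 FPKM in 368T1 and 394T4. Of the leukocyte list Cd68, a macrophage marker, was the 1 gene at 1 FPKM or more, in every line, and Ptprc, the pan-leukocyte gene, was listed at 0 throughout. Of 10 fibroblast markers, 5 reached 1 FPKM in 482N1, against none in 238N1 and 1 each in 368T1 and 394T4.

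Cadherin transcripts in these lines were mainly Cdh1, in both groups. Cdh1 (E-cadherin; ENSMUSG00000000303, chromosome 8, 109127251 to 109194146, plus strand, mm9) stood at 173.8 FPKM in 238N1 and 104.4 FPKM in 482N1, against 108.7 FPKM in 368T1 and 155.1 FPKM in 394T4. The groups overlapped, and the highest and lowest values were both in metastatic lines. The means were 139.1 ± 49.1 FPKM for metastatic and 131.9 ± 32.8 FPKM for non-metastatic lines (SD, n = 2 each). Its difference on the log2(FPKM + 1) scale was 0.053 (SE 0.33), positive as deposited but -0.042 after median centring, and did not pass limma's test over the 12425 genes averaging 1 FPKM or more (adjusted p = 0.942). Cdh1 thus overlapped between the groups while Epcam, Cldn4 and the other 4 epithelial markers did not; how these relate was not tested. Within each library Cdh1 ranked high, at percentiles 96.2 and 93.6 of the genes tested in 238N1 and 482N1, against 92.4 and 95.1 for 368T1 and 394T4. From its lowest to its highest line Cdh1 spanned 0.73 on the log2 scale. The median span was 0.61 for the 1110 genes of similar mean level, meaning within 2-fold of its own mean and above 0 in every line, and 63.7% of these genes had no larger span.

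Cdh2 (N-cadherin, the cadherin of neural and many mesenchymal cells; ENSMUSG00000024304, chromosome 18, 16747386 to 16967755, minus strand) was expressed beside Cdh1 in all 4 lines. It stood at 33.7 FPKM in 238N1 and 57.8 FPKM in 482N1, against 26.5 FPKM in 368T1 and 31.2 FPKM in 394T4. Both metastatic lines lay above both non-metastatic lines, but 238N1 exceeded 394T4 by little and 482N1 stood apart. Of all genes tested, 28.3% had this order, so it is common in these data, and Cdh2 was the 1 of the 5 tested cadherins and catenins that had it. Means were 45.7 ± 17.1 FPKM for metastatic and 28.8 ± 3.31 FPKM for non-metastatic lines (SD, n = 2 each), a log2 difference of 0.60 (SE 0.31) that did not pass (limma, adjusted p = 0.393). None of the 5 passed, where 0.161% of all genes tested did. The same share stands behind every list below in which none passed, so that outcome alone does not set a list apart. Without 482N1 the difference was 0.22. The line with the most Cdh2 was also the one with the most fibroblast marker signal: the 10 markers summed to 0.678 and 41.0 FPKM in 238N1 and 482N1, against 2.47 and 4.30 FPKM in 368T1 and 394T4. Col1a2, Dcn, Lum and Fap from that list were listed at 0 in every line, while Col1a1 and Acta2 each stood at 16.3 FPKM in 482N1. Their part in the Cdh2 result was not tested. In RNA from a whole culture, more cells of a kind and more RNA per cell cannot be told apart.

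**Figure D1:**
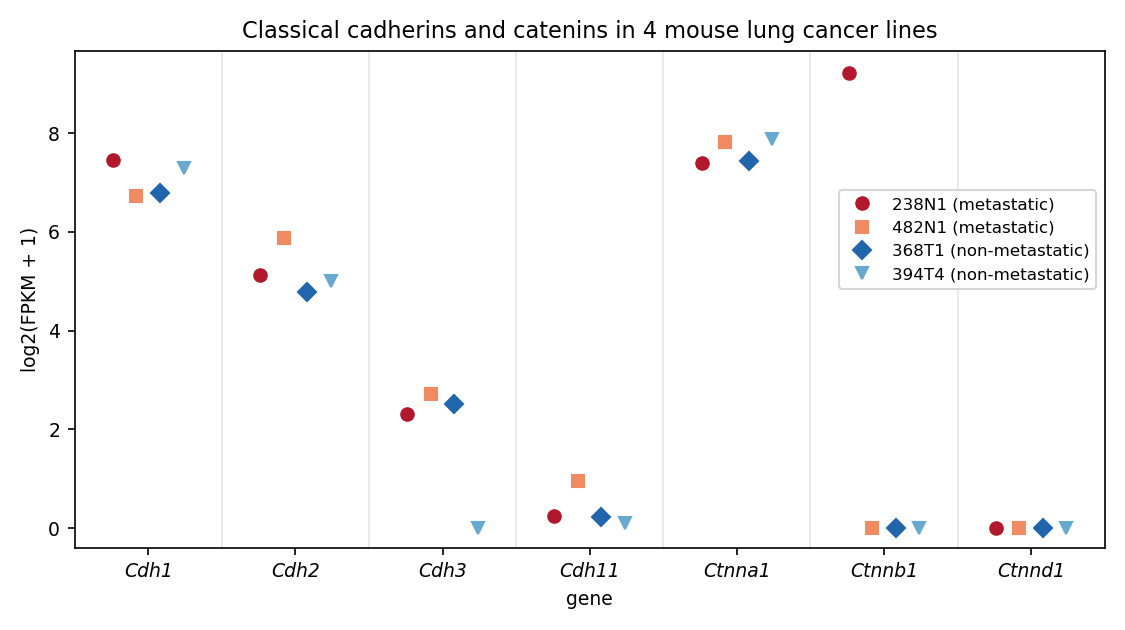
Level of each of the 7 genes as log2(FPKM + 1), 1 point per line, with metastatic lines (red) to the left of non-metastatic lines (blue) and 1 library per point. Cdh1 and Ctnna1 sit high and close together in all 4 lines, Cdh2 is highest in 482N1, and Ctnnb1 is at 589.4 FPKM in 238N1 and listed at 0 in the other lines.

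Cdh3 (P-cadherin, a classical cadherin of placenta and of basal cells in stratified epithelia; ENSMUSG00000061048) lies next to Cdh1 on chromosome 8, at 109034791 to 109080808 on the same strand, with a gap of 46443 bases between the genes. It was low, at 3.93 FPKM in 238N1 and 5.60 FPKM in 482N1, against 4.73 FPKM in 368T1 and a listed value of 0 in 394T4. The 3 values above 0 were close, and they held 1 non-metastatic and both metastatic lines. The fitted log2 difference of 1.25 (SE 0.91; limma, adjusted p = 0.485) rested on the single 0, since it was -0.0064 with 0 taken as missing or with 394T4 left out. Cdh11 (OB-cadherin, a type II classical cadherin of osteoblasts and mesenchyme; ENSMUSG00000031673, chromosome 8, 105156895 to 105309011) was nearly silent, at 0.183 FPKM in 238N1 and 0.948 FPKM in 482N1, against 0.172 FPKM in 368T1 and 0.0741 FPKM in 394T4. With a mean under 1 FPKM it was not among the genes tested. As for Cdh2, its highest value was in 482N1, the line with the highest fibroblast marker sum.

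The order of the cadherins was the same in every line apart from the 0 of Cdh3 in 394T4. The lowest Cdh1 value, 104.4 FPKM, lay above the highest Cdh2 value, 57.8 FPKM, and the lowest Cdh2 value, 26.5 FPKM, above the highest Cdh3 value, 5.60 FPKM. Of the summed FPKM of the 4 cadherins, Cdh1 made up 82.1% in 238N1 and 61.9% in 482N1, against 77.6% in 368T1 and 83.2% in 394T4. Cdh2 made up 15.9% and 34.3% in 238N1 and 482N1, against 18.9% and 16.7% in 368T1 and 394T4. A share within a line does not depend on how libraries are scaled to each other. The ratio of Cdh1 to Cdh2 was 5.16 in 238N1 and 1.80 in 482N1, against 4.11 in 368T1 and 4.98 in 394T4, so 1 metastatic line had the highest ratio of the 4 and the other the lowest. The cadherin sum was 211.6 FPKM in 238N1 and 168.8 FPKM in 482N1, against 140.1 FPKM in 368T1 and 186.3 FPKM in 394T4, and here too the groups overlapped.

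Among the other classical cadherins, Cdh6 showed the widest gap between the groups. Cdh6 (K-cadherin, a type II cadherin of kidney and of migrating neural crest; chromosome 15, 12963955 to 13103394) stood at 9.22 FPKM in 238N1 and 19.5 FPKM in 482N1, against 1.98 FPKM in 368T1 and 2.13 FPKM in 394T4. The groups did not overlap. Its log2 difference was 2.24 (SE 0.40), with an unadjusted p of 0.00424 from limma, and it did not pass over all genes (adjusted p = 0.328). Over 17 alternatives the difference stayed between 1.40 and 2.75. It passed limma's test only after scaling to the library sum (adjusted p = 0.00955), the fit whose SE was nearly the same for the genes shown. Cdh6 stood at 0.274 and 0.337 times the level of Cdh2 in 238N1 and 482N1, against 0.0749 and 0.0684 times in 368T1 and 394T4. With Cdh6 added to the sum, it made up 4.18% and 10.4% of cadherin FPKM in 238N1 and 482N1, against 1.40% and 1.13% in 368T1 and 394T4. As with Cdh2, the higher of the metastatic values was in 482N1, the line with the highest fibroblast marker sum, whose part in the Cdh6 result was not tested. In 238N1 alone Cdh6 was 3.43 and 3.27 times as high on FPKM + 1 as in 368T1 and 394T4.

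**Figure D2:**
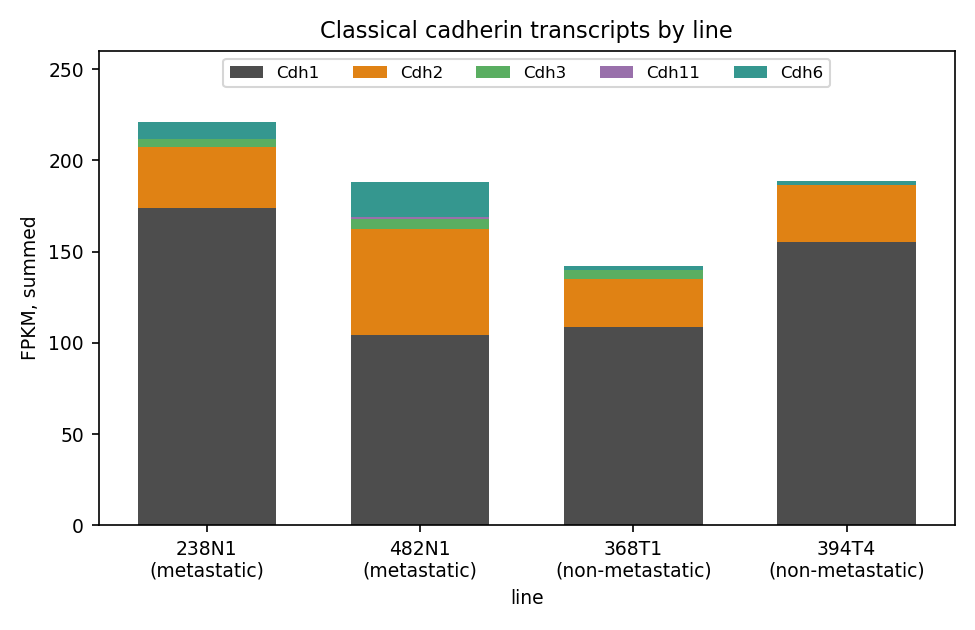
FPKM of 5 classical cadherins stacked for each line, metastatic lines on the left, 1 library per bar. Cdh1 is the largest part of every bar, and the parts of Cdh2 and Cdh6 are widest in 482N1, at 57.8 and 19.5 FPKM.

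The remaining classical cadherins were low or absent from the signal. Of 13 in the table outside the 4 described first, 3 passed the filter on low values, 6 were listed at 0 in all lines and none passed limma's test in either direction. Cdh10 (a type II cadherin of the nervous system) had 7.76 and 1.79 FPKM in 238N1 and 482N1, against 4.07 and 4.97 FPKM in 368T1 and 394T4. Cdh24 (another type II cadherin) stood at 1.48 and 3.63 FPKM, against 3.07 and 3.13 FPKM in the same order of lines. Both sets overlapped between the groups. Endothelial Cdh5 (VE-cadherin) stayed under 0.1 FPKM in every line.

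Of 18 non-classical cadherins, 8 were tested, none passed, and the median log2 difference was 0.014, against 0.045 for all genes tested. In 3 of these 8 the metastatic lines were both on top, and in 1 both at the bottom, orders that 28.3% and 26.9% of all genes tested had. Cdh13 (T-cadherin, a cadherin anchored in the membrane by a lipid) had 23.8 and 33.7 FPKM in 238N1 and 482N1, against 10.7 and 17.7 FPKM in 368T1 and 394T4 (log2 difference 0.99, SE 0.33; limma, adjusted p = 0.340). Fat1, a giant protocadherin of the cell cortex, stood at 74.5 and 61.2 FPKM, against 41.8 and 50.6 FPKM (0.54, SE 0.19; adjusted p = 0.342). Celsr1, a planar polarity cadherin, was the 1 below, at 0.560 and 2.02 FPKM, against 3.86 and 3.16 FPKM (-1.05, SE 0.43; adjusted p = 0.356). Cdh17, the cadherin of liver and intestine, was singled out after its values were seen: it had 33.7 and 29.0 FPKM in 238N1 and 482N1, against 50.2 and 21.3 FPKM in 368T1 and 394T4, near the level of Cdh2, with overlapping groups.

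**Figure D3:**
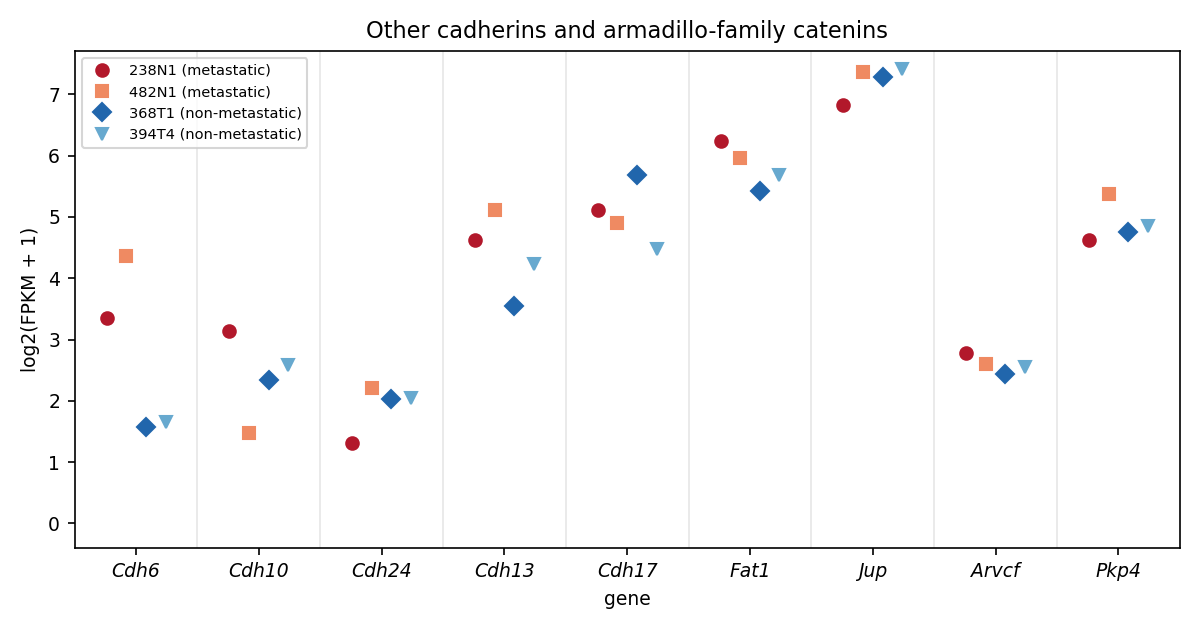
Other cadherins and catenin relatives as log2(FPKM + 1), 1 point per line, metastatic lines to the left of non-metastatic lines. Cdh6 shows both metastatic lines clear of both non-metastatic lines, 9.22 and 19.5 against 1.98 and 2.13 FPKM, while Cdh17, Jup and Pkp4 overlap.

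Of the 3 catenins followed, Ctnna1 alone gave a value above 0 in every line, and it varied less between lines than Cdh1 or Cdh2. Ctnna1 (alpha-catenin; ENSMUSG00000037815, chromosome 18, 35278542 to 35414427, plus strand) stood at 166.9 FPKM in 238N1 and 224.5 FPKM in 482N1, against 171.7 FPKM in 368T1 and 235.0 FPKM in 394T4. The groups overlapped fully, with 1 lower and 1 higher line in each. Means were 195.7 ± 40.7 FPKM for metastatic and 203.4 ± 44.7 FPKM for non-metastatic lines (SD, n = 2 each). The log2 difference of -0.053 (SE 0.25) did not pass (limma, adjusted p = 0.922), and its sign turned with quantile normalization, at 0.18, and with both scalings to a sum. Its span over the lines was 0.49 on the log2 scale, against a median of 0.61 for 716 genes of similar level, of which 35.3% had no larger span. Ctnna1 was above Cdh1 in 482N1, 368T1 and 394T4 and just below it in 238N1. Per unit of summed cadherin FPKM there was 0.789 of Ctnna1 in 238N1 and 1.33 in 482N1, against 1.23 in 368T1 and 1.26 in 394T4, which sets 238N1 apart and not a group.

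Ctnnb1 (beta-catenin; ENSMUSG00000006932, chromosome 9, 120838334 to 120869625, plus strand) had the largest value of the 7 genes and also 3 values of 0. It stood at 589.4 FPKM in 238N1, percentile 98.9 of the genes tested there, and was listed at 0 in 482N1, 368T1 and 394T4. The size of a difference from lines listed at 0 is set by the pseudocount and is no measured fold, and limma's test did not pass (adjusted p = 0.472), except after scaling to the library sum (adjusted p = 5.59e-09). In that fit the SE was 0.724 for Ctnnb1 and 0.721 for Cdh1, where the main fit gave 3.17 and 0.33. That pass therefore does not measure the spread of Ctnnb1 between lines. Ctnnd1 (ENSMUSG00000034101, chromosome 2, 84440228 to 84490922, minus strand) was listed at 0 in all 4 lines and was not tested. These entries are described only as listed at 0, and why they stand at 0 was not tested. Among protein-coding genes, 4 reached 100 FPKM in 1 line and were at 0 in the other 3: Ctnnb1 itself, Gm12184, Prmt1, a major arginine methyltransferase, at 221.2 FPKM in 238N1, and Ezr, the membrane-to-actin linker ezrin, at 269.6 FPKM in 482N1. Psmd1, a proteasome subunit picked after its values were seen, was at 0 in all lines like Ctnnd1. Of the 22155 protein-coding genes in the data, 7196 were listed at 0 in all 4 lines.

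The values of 0 for Ctnnb1 were shared with a neighbouring gene. Ulk4 (chromosome 9, 120869386 to 121186315, minus strand), a kinase-family gene whose annotated end overlaps that of Ctnnb1 by 240 bases, stood at 1.68 FPKM in 238N1 and was listed at 0 in the same 3 lines as Ctnnb1. The same was looked for in all overlapping protein-coding genes, taking each gene that reached 20 FPKM in some line and a partner that reached 1 FPKM in some line. Where the gene was listed at 0 in a line, the overlapping partner was at 0 in that line in 120 of 131 cases (91.6%), including the 3 of Ctnnb1 and Ulk4. Where the gene was above 0, the partner was at 0 in 32 of 3533 cases (0.906%). A pair in which both genes reached 20 FPKM counts once from each side, and the cases are not independent, so no test is given.

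Values of 0 were also commoner in genes with many annotated transcripts. Ctnnd1 has 30 and Ctnnb1 13 transcripts in the annotation used for positions, against 3 each for Cdh1 and Cdh2, 2 for Cdh3 and 1 each for Cdh11 and Ctnna1. Of protein-coding genes that reached 20 FPKM in some line, those listed at 0 in at least 1 other line were 12 of 1103 with 1 transcript (1.09%), 71 of 2000 with 2 to 5 (3.55%), 96 of 1432 with 6 to 12 (6.70%) and 30 of 293 with 13 or more (10.2%). Over all symbols the share was 5.25%. Ctnnd1, at 0 in every line, and Cdh3 and Cdh11, which never reached 20 FPKM, are outside these counts. The 4 protein-coding genes within 60 kb of Ctnnd1 were above 0 in every line: Tmx2, a thioredoxin-related protein gene 20551 bases away, had 42.5 and 52.0 FPKM in 238N1 and 482N1, against 40.3 and 38.4 FPKM in 368T1 and 394T4.

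**Figure D4:**
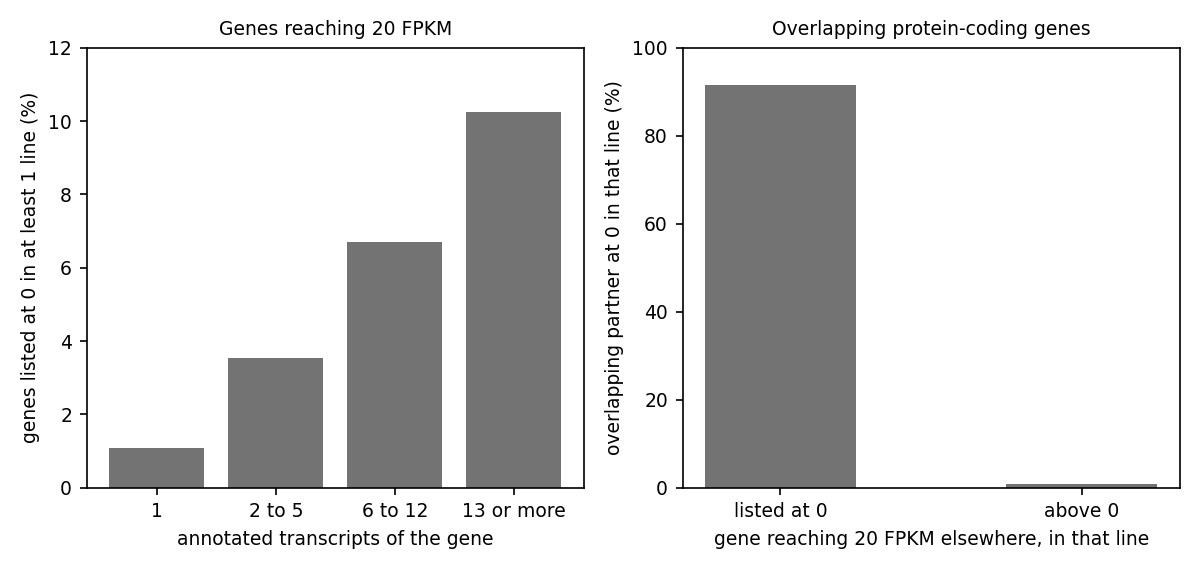
Left, percent of protein-coding genes reaching 20 FPKM that were listed at 0 in at least 1 line, by number of annotated transcripts; right, percent of cases in which an overlapping protein-coding partner was at 0 in the same line, by whether the gene itself was at 0. The left bars climb to 10.2%, and the right bars are 91.6% and 0.906%.

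Plakoglobin (Jup, gamma-catenin), which can take the place of beta-catenin on the cadherin tail, was present in all 4 lines. Jup (chromosome 11, 100230272 to 100259077) had 112.5 and 164.6 FPKM in 238N1 and 482N1, against 155.0 and 168.9 FPKM in 368T1 and 394T4, with overlapping groups (log2 difference -0.25, SE 0.23; limma, adjusted p = 0.572; positive after scaling to the library sum, at 0.39, and without 238N1, at 0.024). Its level was 0.674 and 0.733 times that of Ctnna1 in 238N1 and 482N1, against 0.903 and 0.719 times in 368T1 and 394T4. The line with the Ctnnb1 value, 238N1, had the least Jup and also the least Ctnna1, at 166.9 FPKM. How these values relate was not tested. Of the 8 other catenins, 5 were tested and none passed. Arvcf, a relative of delta-catenin, stood at 5.87 and 5.05 FPKM, against 4.43 and 4.87 FPKM (0.19, SE 0.22; adjusted p = 0.647). Pkp4, another relative, stood at 23.7 and 40.7 FPKM, against 26.1 and 28.0 FPKM. Ctnna2, Ctnna3 and Ctnnd2, the catenins best known from brain and heart, were listed at 0 in every line.

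Line against line, most of the 5 tested genes stayed within 2-fold of each other on FPKM + 1. In the pair 238N1 and 482N1 only Ctnnb1 was further apart, where 10.5% of all genes tested were. Between metastatic and non-metastatic lines the share of all genes was 11.3% for 238N1 and 368T1, 7.34% for 238N1 and 394T4, 21.3% for 482N1 and 368T1 and 13.7% for 482N1 and 394T4. In these pairs the count was 1 gene (Ctnnb1), 2 genes (Ctnnb1 and Cdh3), 1 gene (Cdh2, 2.14 times higher in 482N1) and 1 gene (Cdh3). Between 368T1 and 394T4 it was Cdh3 alone, against 6.44% of all genes. With the comparisons that involve a 0 set aside, the Cdh2 difference between 482N1 and 368T1 was the only one past 2-fold, and median centring brought it under. Cdh1 and Ctnna1 did not differ by 2-fold in any pair, with 1.66 times between 238N1 and 482N1 the widest for Cdh1 and 1.41 times between 238N1 and 394T4 the widest for Ctnna1.

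The junction partners of the cadherin complex did not pass the test in either direction. Of 20 tested nectins and linker genes, 3 had the metastatic lines both on top and 5 both at the bottom, orders that 28.3% and 26.9% of all genes had, and the median log2 difference was -0.083. Pvrl1 (nectin-1, an adhesion partner of the junction) had 2.61 and 6.07 FPKM in 238N1 and 482N1, against 1.03 and 1.98 FPKM in 368T1 and 394T4 (log2 difference 1.04, SE 0.46; limma, adjusted p = 0.368). Pvrl2 (nectin-2) went the other way, at 51.4 and 23.5 FPKM, against 75.2 and 60.9 FPKM (-0.94, SE 0.41; adjusted p = 0.367). Shroom3, an actin regulator of apical junctions, stood at 4.74 and 2.83 FPKM, against 5.64 and 8.19 FPKM (-0.74, SE 0.33; adjusted p = 0.372). Actn4, an actin cross-linker, was listed at 0 in 394T4, with 332.7 FPKM in 238N1, 499.3 FPKM in 482N1 and 381.4 FPKM in 368T1. Mllt4 (afadin, the nectin linker) was at 0 in 482N1 with 39.0, 31.6 and 44.3 FPKM in 238N1, 368T1 and 394T4.

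Genes for cadherin turnover and trafficking were tested in 21 of 21 cases, none passed, and their median log2 difference was 0.091. The metastatic lines were both on top in 4 of them and both at the bottom in 2, orders that 28.3% and 26.9% of all genes had. Adam10, the sheddase that cuts E- and N-cadherin outside the cell, had 34.5 and 42.3 FPKM in 238N1 and 482N1, against 12.8 and 21.7 FPKM in 368T1 and 394T4. Its groups did not overlap (log2 difference 1.15, SE 0.31; limma, adjusted p = 0.335). Rab5a, a GTPase of early endosomes, stood at 17.4 and 21.9 FPKM, against 10.3 and 13.2 FPKM (0.69, SE 0.23; adjusted p = 0.340). Fer, a tyrosine kinase bound to delta-catenin, stood at 6.60 and 10.6 FPKM, against 4.44 and 5.93 FPKM (0.61, SE 0.31; adjusted p = 0.391). Rab7, a GTPase of late endosomes and the most abundant of the list, overlapped, at 121.9 and 102.5 FPKM, against 84.3 and 107.5 FPKM. Ap1m2, which sorts proteins to the basolateral membrane of epithelia, had the lowest adjusted p of the list (0.104) and was picked after its values were seen: it was listed at 0 in 238N1 and 482N1, with 23.1 FPKM in 368T1 and 11.4 FPKM in 394T4.

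**Figure D5:**
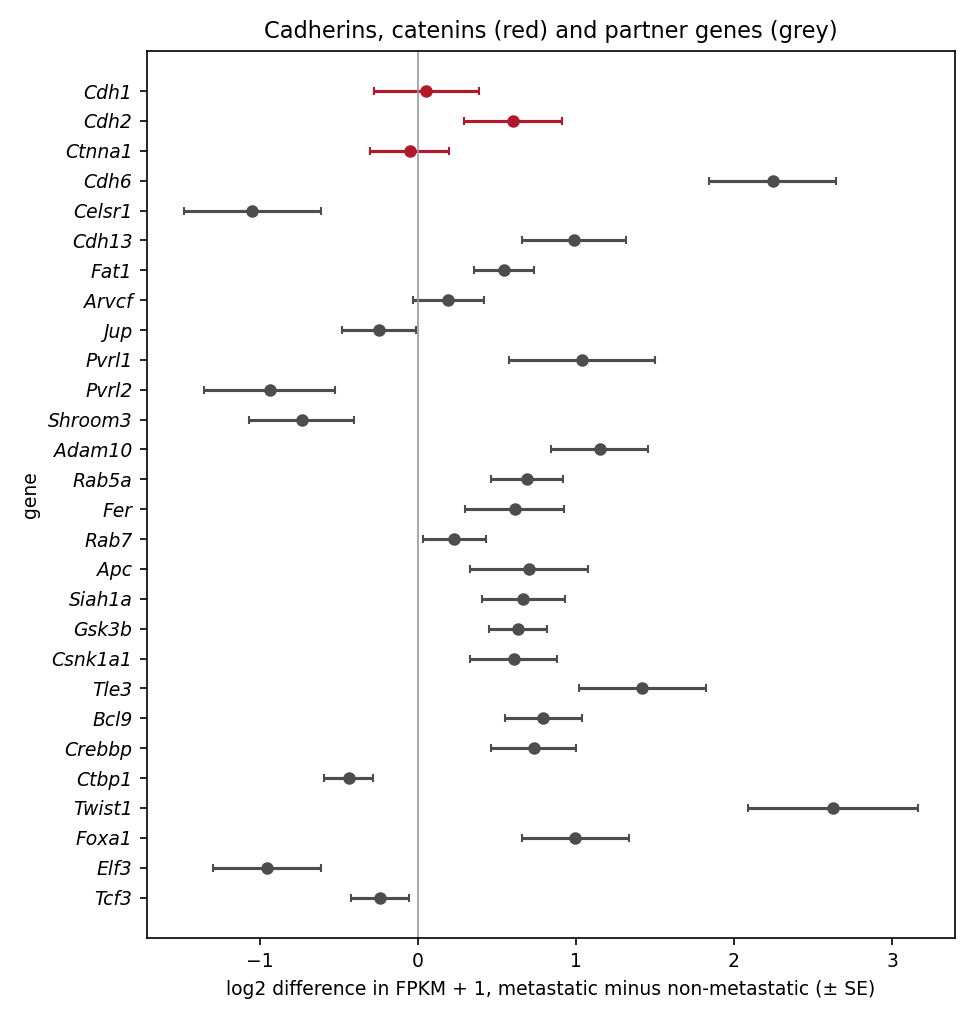
Log2 difference in FPKM + 1, metastatic minus non-metastatic, with its standard error from limma, for genes above 0 in every line (n = 2 lines a group). Cdh1 and Ctnna1 sit at 0.053 and -0.053, Cdh2 at 0.60, and Cdh6 and Twist1 farthest to the right, at 2.24 and 2.63; none passed the test over all genes.

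None of the genes that control beta-catenin outside the junction passed the test, where 0.161% of all genes tested did. The destruction complex marks free beta-catenin for breakdown, and its list here also held regulators that are not parts of it. In this list the metastatic lines were both on top in 10 of 15 tested genes and both at the bottom in 3, orders that 28.3% and 26.9% of all genes had. Of the regulators, Tnks, Tnks2 and Dvl3 were among the 10, and Dvl1 and Dvl2 among the 3. The median log2 difference of the list was 0.52, and 0.31 without 482N1. Gsk3b, the kinase that phosphorylates beta-catenin, had 15.9 and 17.4 FPKM in 238N1 and 482N1, against 9.65 and 11.1 FPKM in 368T1 and 394T4 (0.63, SE 0.19; limma, adjusted p = 0.335). Apc, the scaffold, stood at 6.46 and 11.9 FPKM, against 4.10 and 6.15 FPKM (0.70, SE 0.38; adjusted p = 0.402), and Siah1a, a ubiquitin ligase, at 7.57 and 7.49 FPKM, against 3.55 and 5.36 FPKM (0.66, SE 0.26; adjusted p = 0.354). Csnk1a1, the priming kinase and the most abundant of the list, stood at 59.1 and 87.7 FPKM, against 40.6 and 54.2 FPKM (0.61, SE 0.28; adjusted p = 0.374). Axin1, the second scaffold, was listed at 0 in 238N1 and 394T4, with 24.9 FPKM in 482N1 and 32.1 FPKM in 368T1.

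Of 14 tested nuclear partners of beta-catenin, 6 had the metastatic lines both on top and 3 both at the bottom, against 28.3% and 26.9% of all genes, with a median log2 difference of 0.34, or 0.094 without 482N1. Tle3, a Groucho-family corepressor, had 23.9 and 49.7 FPKM in 238N1 and 482N1, against 10.9 and 13.8 FPKM in 368T1 and 394T4 (1.42, SE 0.40; limma, adjusted p = 0.335). Bcl9, a coactivator that binds beta-catenin, stood at 12.3 and 15.4 FPKM, against 6.47 and 8.71 FPKM (0.79, SE 0.24; adjusted p = 0.335). Crebbp, an acetyltransferase coactivator, stood at 4.77 and 6.07 FPKM, against 2.45 and 3.29 FPKM (0.73, SE 0.27; adjusted p = 0.344). Ctbp1, a corepressor, was lower, at 92.3 and 94.4 FPKM, against 137.4 and 117.3 FPKM (-0.44, SE 0.15; adjusted p = 0.340). Lef1 was listed at 0 in every line, as was Ctbp2.

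None of 12 tested regulators of Cdh1 passed, with the metastatic lines both on top in 4 and both at the bottom in 4, near the 28.3% and 26.9% of all genes with these orders. Twist1, a repressor of Cdh1, had 11.9 and 30.4 FPKM in 238N1 and 482N1, against 3.14 and 1.56 FPKM in 368T1 and 394T4. Its log2 difference was 2.63 (SE 0.54, limma, adjusted p = 0.328), while Cdh1 itself overlapped between the groups. Over 17 alternatives Twist1 passed only after scaling to the library sum (limma, adjusted p = 0.00132), the fit whose SE was nearly the same for the genes shown. Snai2, a second repressor, stood at 1.77 and 5.62 FPKM, against 1.13 and 1.45 FPKM (0.91, SE 0.51; adjusted p = 0.418). Snai1 stood at 0.513 and 5.15 FPKM, against 0.795 and 1.34 FPKM, with its highest value in 482N1. Twist1, Snai1 and Snai2 were thus all highest in the line with the highest fibroblast marker sum, whose part in these values was not tested. Zeb1 stood at 8.81 and 6.84 FPKM, against 3.33 and 6.62 FPKM (0.61, SE 0.36; adjusted p = 0.433), and Zeb2 was listed at 0 in every line. Foxa1, an activator in airway and gut epithelium, stood at 18.2 and 34.2 FPKM, against 12.2 and 11.8 FPKM (0.996, SE 0.34; adjusted p = 0.340). Elf3, an epithelial ETS factor, stood at 12.9 and 6.99 FPKM, against 21.9 and 17.1 FPKM (-0.95, SE 0.34; adjusted p = 0.344). Tcf3, the E2A factor and the most abundant of the list, stood at 54.3 and 53.2 FPKM, against 56.5 and 71.8 FPKM (-0.24, SE 0.18; adjusted p = 0.493). Without 482N1 the median log2 difference of the 12 genes was -0.039, against 0.58 with it. Esrp1, an epithelial splicing factor, and Grhl2, an epithelial activator of Cdh1, were picked after their values were seen: both were listed at 0 in 238N1 and 482N1. In 368T1 and 394T4 Esrp1 stood at 14.1 and 8.06 FPKM (adjusted p = 0.117) and Grhl2 at 2.57 and 2.28 FPKM (adjusted p = 0.328).

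Genes with a profile like that of Cdh2 were sought over the 4 lines, by the root mean square difference of line values centred on each gene's own mean. Only genes averaging at least 5 FPKM, above 0 in every line and without a clone or model name were compared. The nearest were Prpf18, a splicing factor gene, at 0.0106 on the log2(FPKM + 1) scale, Jkamp at 0.0135 and Fem1c at 0.0137. With 4 points a broadly like profile is not rare: 1288 of 7385 genes compared (17.4%) lay within the much looser limit of 0.25 of Cdh2. How often a gene has neighbours as close as these was not counted. Cdh3 and Ctnnb1 hold values of 0, and any gene sharing such a 0 had been left out beforehand. None of the 7386 genes compared lay within 0.25 of either. That follows in part from the rule and does not show that their profiles are rare. Of the genes compared, the nearest to Cdh3 were Cldn6 at 0.347, Vil1 at 0.414 and Rpl29 at 0.424, and the nearest to Ctnnb1 were Tns4 at 2.27 and Plac8 at 3.02. Cdh1, Ctnna1 and Cdh11 spanned under 1 on that scale and were not compared.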

How the data were processed

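Paired-end TruSeq libraries of 100 bp reads, from 4 cultured lines, were aligned to mm9 according to the labels and design text. TopHat appears, without a version, among the submitters' processing notes. Which program and annotation produced gene values is not given in the sources used here. Per the file headers, values were deposited as FPKM, with 1 column for each line. One allele of the tumour genotype is not reported here.

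The row with the highest mean was kept for each symbol. Genes with a mean of at least 1 FPKM (12425) entered limma 3.58.1 (R 4.3.3) with a variance trend on log2(FPKM + 1), metastatic minus non-metastatic, two-sided, Benjamini-Hochberg adjusted over all of them, with a threshold of 0.05. This scale understates changes of low genes. Positions and transcript numbers are from GENCODE vM1 on NCBIM37, the assembly of mm9, which held 99.0% of the row IDs. Relative depth came from the most frequent ratio between lines among genes averaging under 0.08 FPKM.

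The members, gene lists and tests were chosen with earlier results of these data known. All 7 members are named. Each list names members past the test, or else up to 3 with the largest difference among genes above 0 whose groups did not overlap, plus its most abundant gene; Jup, Snai1, Snai2, Zeb1, Zeb2 and Twist1 are always named. Further genes listed at 0, and Cdh10, Cdh24, Cdh5, Cdh17, Pkp4, Tmx2, Ap1m2, Gsk3a, Esrp1 and Grhl2, were added after their values were seen. Tested on simulated data for the same comparison of 12425 genes, the fit recovered 100% of 200 genes changed 8-fold, with 11 false calls. The simulated spread followed the fitted trend alone, without a spread of each gene's own, and only well expressed genes were changed. In the real data Epcam and Cldn4, with log2 differences of -3.02 and -3.47, did not pass. The share recovered is therefore no measure of the power in these data.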

Additional observations from a re-analysis of the deposited data

How the results depend on the processing

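None of the 5 tested cadherins and catenins passed limma's test in any of the fits listed, with 1 exception: Ctnnb1 after scaling to the library sum, with a log2 difference of 4.86 (adjusted p = 5.59e-09, where its fits otherwise gave 0.0892 to 1). A single row, AC113316.1, took between 18.7% and 62.4% of those sums, and that scaling moved the median of all genes by 0.56. Scaling to the protein-coding sum moved it by 0.19. After scaling to the library sum the SE of the 5 tested members ran only from 0.703 for Cdh3 to 0.727 for Cdh2. A pass in that fit, including those of Cdh6 and Twist1, therefore does not measure a gene's own spread between lines. The direction of Cdh1 turned to -0.042 with median centring, and its value ran from -0.31 to 0.42 with 1 line left out. Cdh2 stayed positive in every fit, from 0.22 to 0.99 with 1 line left out. Cdh3 ran from -0.0064 to 2.51, and was -0.0064 with 0 as a missing value. Ctnna1 turned to 0.18 with quantile normalization, 0.59 with the library sum and 0.17 with the protein-coding sum, and ran from -0.28 to 0.17 with 1 line left out. Ctnnb1 ran from 0 to 9.21. Its fitted values, from 3.45 to 6.26 with pseudocounts of 5 and 0.1, set 238N1 against lines listed at 0 and are no measured folds.

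Over all genes, 14 higher and 6 lower calls became 1 and 1 with no filter, 7 and 3 at a mean of 5 FPKM, 279 and 96 with the library sum and 31 and 13 without the trend. There were 15 lower calls with robust=TRUE. Calls of higher genes fell to 0, by limma's adjusted p, with genes at 0 left out or 0 taken as missing; 989 and 988 genes were then higher at an unadjusted p under 0.05. With any 1 line left out there were 0 calls in both directions, and between 310 and 1249 higher and 264 and 1277 lower genes at an unadjusted p under 0.05.

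The number of members over 2-fold apart became 2 for 238N1 and 482N1, 4 for 238N1 and 368T1, 2 for 482N1 and 368T1 and 4 for 368T1 and 394T4 with the library sum, and 0 for 482N1 and 368T1 with median centring. List medians with 1 line left out ran from -0.27 to 0.67 for other classical cadherins, -0.18 to 0.13 for other catenins, -0.039 to 0.24 for turnover genes, 0.31 to 0.68 for the destruction complex, 0.094 to 0.73 for nuclear partners and -0.039 to 0.73 for regulators of Cdh1, whose median was 0.48 with median centring. In all, 165 of 213 alternative values were classed as keeping their direction and side of the threshold or moving by less than the spread between lines. These include values that could not differ, such as cadherin shares with rows of a symbol added up, since each cadherin had a single row. They also include the Ctnnb1 difference of 0 without 238N1, so the count is no measure of stability. The cause of the shifts was not tested. The small number of lines, with 1 library each and no counts, limits the precision. No paired analysis was possible because the labels number no replicates.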
